A study of Mus musculus with 8 samples.

Results

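Nos2, Duox2, Duoxa2 and Gpx2 were examined as a group of 4 genes of epithelial oxidant defence, out of 19938 genes with a probe set of their own on the array. They were chosen with their levels on these arrays known, where knockdown-labelled arrays lay above their controls, so the differences between groups are described here and not tested. Each of the 4 genes had 1 probe set naming that gene alone.

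Intestinal epithelial cells came from male mice of the outbred ICR stock, aged 8 weeks, whose small intestine had been transfected in the living animal, and the RNA dates from 4 days after that. Arrays labelled siYAP/TAZ (n = 3) came from intestine given siRNAs against YAP and TAZ, and siGFP arrays (n = 3) from intestine given an siRNA against GFP, a jellyfish protein that these mice lack. In the second arm, 1 array is labelled shYAP/TAZ, for plasmids that express shRNAs to YAP and TAZ, and 1 is labelled shLacZ, for a plasmid whose shRNA is aimed at LacZ, a gene of bacteria. All 4 groups carried a transfected nucleic acid, none was left without transfection, and the labels name no cell type to which delivery was limited. The labels assign each control array to 1 knockdown-labelled array, which gives 3 siRNA comparisons and 1 shRNA comparison, but they do not say which arrays share an animal or a day. Levels are log2 intensities after quantile normalization, a difference is the knockdown-labelled level minus the control level, and a difference of 1 is a change of 2-fold.

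DUOX2 is a membrane oxidase of the gut surface that makes hydrogen peroxide, and DUOXA2 is the maturation factor that carries it out of the endoplasmic reticulum. NOS2, the inducible nitric oxide synthase, makes nitric oxide from arginine in epithelium and in activated macrophages, and is set mainly by transcription. GPX2 is the glutathione peroxidase of the gut epithelium and reduces hydrogen peroxide and lipid peroxides inside the cell. In mouse intestine Duox2, Duoxa2 and Nos2 are known as genes that respond to microbes and inflammatory cytokines, and Gpx2 as a gene of the crypt and a target of NRF2.

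Duox2 and Duoxa2 are neighbours on mouse chromosome 2 on opposite strands, and the related pair Duoxa1 and Duox1 follows them. The RefSeq promoter windows of the facing genes (build GRCm38.p6, 250 bases before to 50 bases after the annotated start, each written 5′ to 3′ on its gene's strand) are shown because the levels of these neighbours moved together over the arrays. They lie 172 bases apart, at chr2:122298178-122298477 on the minus strand for Duox2 and at chr2:122298650-122298949 on the plus strand for Duoxa2. Capitals mark a match to 1 of 6 short motifs searched on both strands.
Duox2: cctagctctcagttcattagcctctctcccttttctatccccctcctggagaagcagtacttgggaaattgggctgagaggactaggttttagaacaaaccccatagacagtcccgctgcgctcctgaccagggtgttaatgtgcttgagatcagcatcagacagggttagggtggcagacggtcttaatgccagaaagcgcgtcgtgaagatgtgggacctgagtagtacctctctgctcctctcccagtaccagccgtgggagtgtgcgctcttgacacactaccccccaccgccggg
Duoxa2: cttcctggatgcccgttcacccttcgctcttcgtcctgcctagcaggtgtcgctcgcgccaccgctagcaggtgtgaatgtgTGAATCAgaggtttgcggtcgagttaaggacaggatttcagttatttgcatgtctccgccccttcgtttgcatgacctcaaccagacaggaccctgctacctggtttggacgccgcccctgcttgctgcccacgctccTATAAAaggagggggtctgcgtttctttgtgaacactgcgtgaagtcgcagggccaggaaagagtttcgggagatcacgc
The Duoxa2 window held the AP-1 letters TGANTCA, in which N stood for any base in the search, as TGAATCA at window bases 83 to 89. The searched pattern is a palindrome, so it matched there on both strands. The window also held the TATA box letters TATAAA at bases 221 to 226, which end 24 bases before the start. Of 32851 RefSeq windows of this length, 7.81% held the AP-1 letters and 13.6% the TATA letters. The other motifs were GGAATG for TEAD factors, the DNA-binding partners of YAP and TAZ (in 14.7% of windows), GGANNTTCC for NF-kB (4.26%), TTCNNNGAA for STAT factors (8.3%) and TGACNNNGC for the antioxidant response element (12.4%). None of the 6 was in the Duox2 window or in the Gpx2 window at chr12:76795505-76795804. The table matched 3 of the 4 genes. A match is a run of letters and not a measured binding site.

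The arrays differed widely before any group was considered. Median deposited intensity per array lay between 76.4 and 95.5, and the first principal component, with 56.8% of the variance, ran across the groups. The targeted genes showed no clear fall. Between the siYAP/TAZ and siGFP means Yap1 differed by -0.12 (SE 0.32) and Wwtr1, which encodes TAZ, by -0.28 (SE 0.36). In the shRNA comparison they differed by -0.09 and 0.06. The siRNA comparisons gave 0.25, -0.87 and 0.27 for Yap1 and -0.55, 0.58 and -0.86 for Wwtr1. The Wwtr1 probe set was dim, below the array's median intensity on every array except siGFP 3, and whether it could show a fall was not tested. The groups are therefore called by their labels. All 10 epithelial markers were measured, and their mean level lay between 10.46 and 11.03 on every array. The siYAP/TAZ mean was below the siGFP mean for 9 of the 10, with a median difference of -0.23 and 0 called by limma. Epcam, Krt8 and Krt19 were lower in all 4 comparisons, and for Epcam (-0.35) and Krt8 (-0.30) the siRNA groups did not overlap. The 3 ileal markers measured did not move together. Fabp6, an ileal bile acid binding protein, differed by -2.41, 7.69 and -6.05 in siRNA comparisons 1 to 3 and by -0.07 for the shRNAs, and Slc10a2, the ileal bile acid transporter, by 0.72, 4.43, -4.30 and 1.98. Cubn, an endocytic receptor of the ileum, was lower in all 4 comparisons, with differences of -4.99, -0.76, -2.79 and -6.57, and its siRNA groups did not overlap. The share of all genes whose siYAP/TAZ arrays all lay below the siGFP arrays is not given here. The part of gut position in the members' levels was not tested. No array was left out.

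The oxidase Duox2 had deposited intensities of 867, 471 and 162 in siYAP/TAZ 1 to 3, against 761, 30.5 and 91.3 in siGFP 1 to 3. It had 317 in shYAP/TAZ, against 56.8 in shLacZ. The siGFP 1 array was as bright as siYAP/TAZ 1, so the siRNA groups overlapped, while siGFP 2, siGFP 3 and shLacZ were the dimmest arrays. On the log2 scale the means were 8.68 ± 1.17 (SD, n = 3) in siYAP/TAZ and 7.01 ± 2.26 (SD, n = 3) in siGFP, a difference of 1.66 (SE 1.03). By comparison the differences were 0.16, 3.87 and 0.97 in the siRNA arm and 2.56 in the shRNA arm, or 1.12-fold, 14.6-fold, 1.96-fold and 5.89-fold.

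Duoxa2, the partner needed to bring the oxidase to the surface, had intensities of 2030, 221 and 67.5 in siYAP/TAZ 1 to 3, against 690, 38.1 and 45.0 in siGFP 1 to 3. It had 354 in shYAP/TAZ, against 47.5 in shLacZ. As for Duox2, siGFP 1 stood far above the other control arrays, and siYAP/TAZ 3 was the dimmest of the knockdown-labelled arrays. The means were 8.31 ± 2.40 (SD, n = 3) in siYAP/TAZ and 6.73 ± 2.29 (SD, n = 3) in siGFP, a log2 difference of 1.57 (SE 1.32). The differences of the siRNA comparisons were 1.50, 2.48 and 0.74, and that of the shRNA comparison was 2.99, or 7.93-fold.

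Nos2, the nitric oxide source, had intensities of 1026, 238 and 109 in siYAP/TAZ 1 to 3, against 619, 25.7 and 58.7 in siGFP 1 to 3. In shYAP/TAZ it had 1422, the brightest of the 8 arrays, against 37.5 in shLacZ. The siRNA groups again overlapped through siGFP 1. The means were 8.25 ± 1.55 (SD, n = 3) in siYAP/TAZ and 6.60 ± 2.31 (SD, n = 3) in siGFP, a log2 difference of 1.65 (SE 1.12). The siRNA comparisons gave 0.70, 3.20 and 1.06 and the shRNA comparison 5.35, or 40.7-fold between 2 single arrays.

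Gpx2, which removes peroxide, was bright on every array, with intensities of 5253, 1775 and 1169 in siYAP/TAZ 1 to 3, against 2242, 951 and 408 in siGFP 1 to 3. It had 2677 in shYAP/TAZ, against 1339 in shLacZ. The siRNA groups overlapped, because siGFP 1 lay above siYAP/TAZ 2 and 3, but each knockdown-labelled array was above its own control by a like amount. The means were 11.1 ± 1.03 (SD, n = 3) in siYAP/TAZ and 9.88 ± 1.20 (SD, n = 3) in siGFP, a log2 difference of 1.22 (SE 0.67). The comparisons gave 1.14, 1.01 and 1.51 in the siRNA arm and 1.08 in the shRNA arm. The SD of the 3 siRNA comparisons was 0.26 for Gpx2, against 1.35 for Nos2, 1.95 for Duox2 and 0.88 for Duoxa2.

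**Figure D1:**
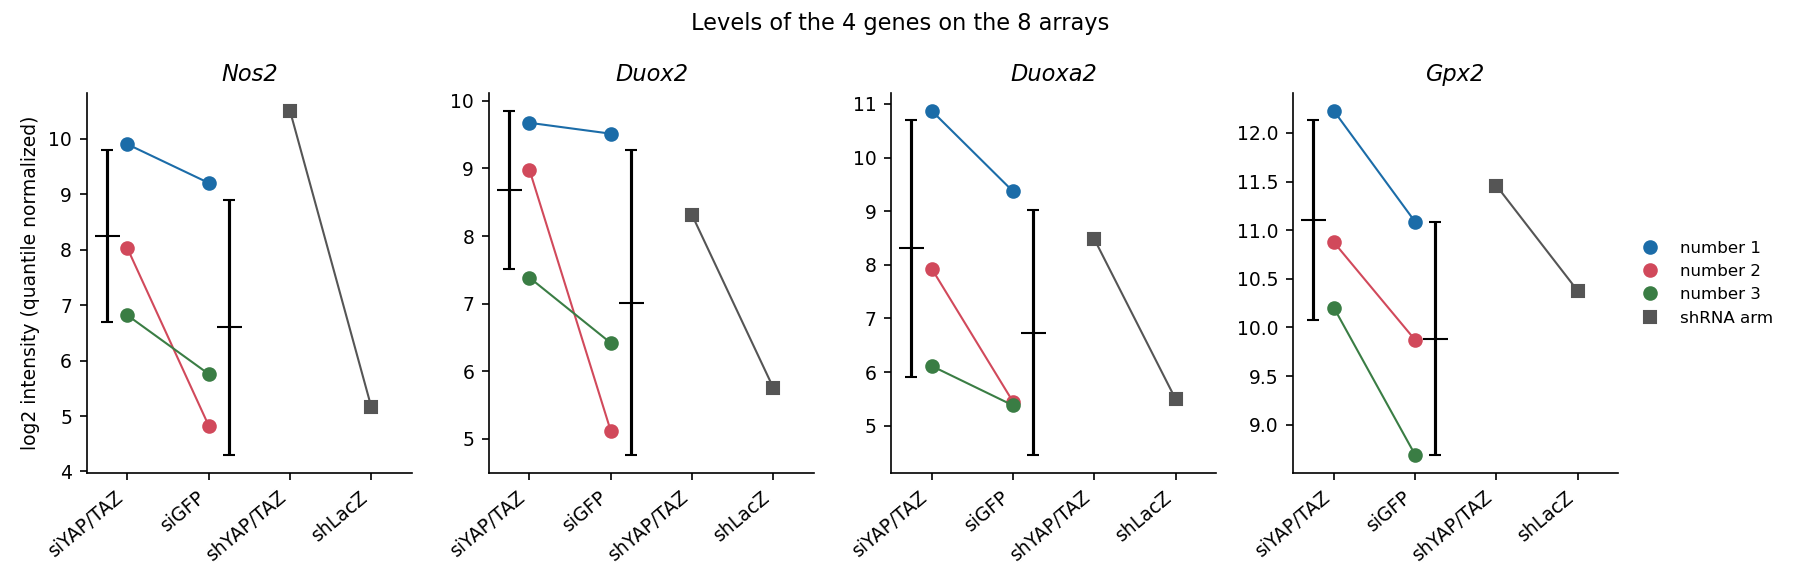
Log2 intensity (quantile normalized) of Nos2, Duox2, Duoxa2 and Gpx2 on the 8 arrays. Lines join each knockdown-labelled array to its own control, bars beside the siRNA groups are mean ± SD (n = 3), and every line runs lower on the control side, while siGFP 1 lies above siYAP/TAZ 3 for all 4 genes.

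**Figure D2:**
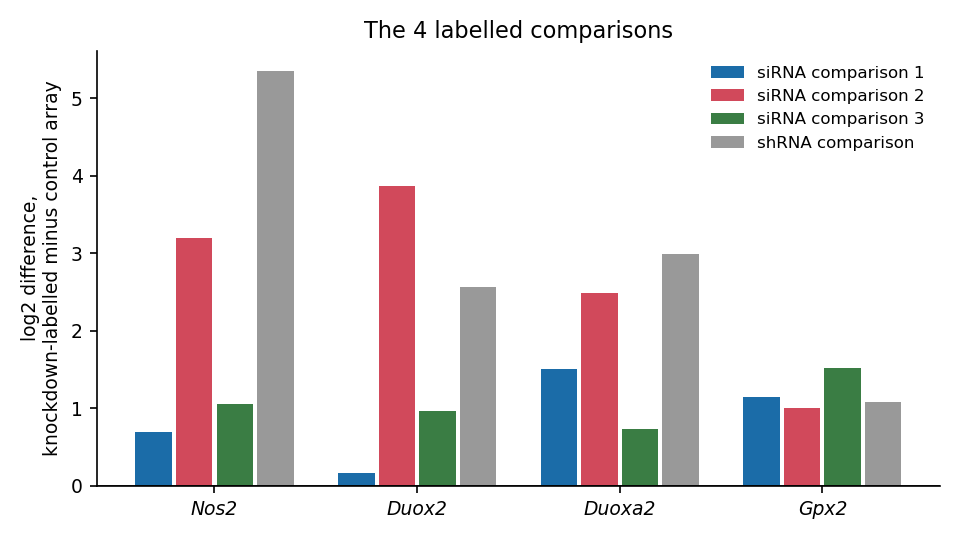
Log2 difference, knockdown-labelled array minus its control array, for the 4 genes in the 3 siRNA comparisons and the shRNA comparison (bars start at 0, 1 value each, no error bar). All 16 bars are above 0; the lowest is Duox2 in siRNA comparison 1 at 0.16, the highest Nos2 in the shRNA comparison at 5.35.

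Across the 4 genes, 16 of 16 differences were above 0. This is the pattern that the choice of genes used, and it is given as a description. Of all 19938 genes, 6.02% were higher in all 4 comparisons, against 4 of the 4 genes here. The siYAP/TAZ mean was at least 2-fold above the siGFP mean for 4 of 4, against 0.637% of all genes, and shYAP/TAZ was at least 2-fold above shLacZ for 4 of 4, against 1.84%. The siYAP/TAZ arrays all lay above the siGFP arrays for 0 of 4, against 1.6%. With limma over all genes, 0 of 4 passed an adjusted p of 0.05 in the siRNA arm, where 0% of all genes did and 237 had an unadjusted p under 0.05. Single arrays moved the means. For Nos2 and Duox2 the log2 difference stood at 2.96 and 2.91 without siGFP 1, and at 0.77 and 0.71 without siGFP 2. For Duoxa2 it stood at 2.89 without siGFP 1, 2.67 without siYAP/TAZ 3, 0.93 without siGFP 2, 0.90 without siGFP 3 and 0.29 without siYAP/TAZ 1. Nos2 stood at 0.83 without siYAP/TAZ 1, and Gpx2 at 0.66 without siYAP/TAZ 1 and 0.62 without siGFP 3. The direction did not turn without any 1 array.

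The dim end of the scale matters for 3 of the genes. The Nos2 and Duoxa2 probe sets lay below the array's median intensity on 3 of the 4 control arrays and Duox2 on 2 of 4. Gpx2 was above that median on all 8. Duoxa2 was also below it on 1 of the 4 knockdown-labelled arrays, siYAP/TAZ 3, at 67.5 against a median of 83.2. Its siRNA comparison 3 thus set 2 dim values side by side. The lowest deposited value of each array was just above 16. When 15 was taken from every value first, the shRNA difference was 6.12 for Nos2, 2.96 for Duox2, 3.51 for Duoxa2 and 1.09 for Gpx2. In siRNA comparison 2 it was 4.21 for Nos2, 4.65 for Duox2, 3.00 for Duoxa2 and 1.02 for Gpx2. As linear folds, Nos2 stood at 18.5-fold in siRNA comparison 2 and 69.6-fold in the shRNA comparison, and Duox2 at 25.1-fold in siRNA comparison 2, against 9.20-fold, 40.7-fold and 14.6-fold without that step.

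The 4 genes varied together. Over the 8 arrays Pearson's r was 0.92 for Duox2 with Duoxa2 (Spearman's rho 0.90), 0.91 for Nos2 with Duoxa2 (rho 0.86), 0.90 for Nos2 with Duox2 (rho 0.86), 0.88 for Duoxa2 with Gpx2 (rho 0.95), 0.82 for Nos2 with Gpx2 (rho 0.86) and 0.75 for Duox2 with Gpx2 (rho 0.81). Without the 2 arrays farthest from the median of the first gene of each couple, the 6 values of r lay between 0.81 and 0.98. Ranked by r to Duox2 among all genes, Duoxa2 was at rank 6, Nos2 at 10 and Gpx2 at 129. Ranked by r to Gpx2, Duoxa2 was at rank 62, Nos2 at 299 and Duox2 at 827. Many genes outside the group were thus closer to Gpx2 than Nos2 and Duox2 were. These are descriptions over 8 arrays that share their normalization, with no test, for genes picked as a group.

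Among genes outside the dimmest 33%, leaving out predicted genes and clone names, those with the highest r to a member over the 8 arrays were listed, 5 for each. Gsr, glutathione reductase, which restores the glutathione that GPX2 uses, was on the lists of Gpx2 (r = 0.96, rho 1.00), Duoxa2 (r = 0.95, rho 0.95) and Nos2 (r = 0.91, rho 0.86). Its 3 siRNA differences were 0.59, 1.02 and 0.51, and shYAP/TAZ differed from shLacZ by 0.99. St6galnac6, a sialyltransferase, headed the list of Duox2 (r = 0.96, rho 1.00) and was on that of Duoxa2 (r = 0.95, rho 0.90). For Nos2 the others were Gmds, an enzyme of GDP-fucose synthesis (r = 0.96), the small proline-rich genes Sprr2g (r = 0.94) and Sprr2i (r = 0.92), and Dmbt1, a secreted mucosal scavenger protein (r = 0.93). Members of the Sprr2 family resemble each other and can share array signal. For Duox2 they were B3gnt5, a glycosyltransferase (r = 0.93), Gmds (r = 0.92), Duoxa2 and Sprr2g (both r = 0.92). For Duoxa2 they were Tgfbr2, a TGF-beta receptor (r = 0.97), Tc2n (r = 0.97) and Sprtn (r = 0.95). For Gpx2 they were Grk6, a receptor kinase (r = 0.99), Tsr3 (r = 0.98), Esyt1 (r = 0.96) and Mdn1 (r = 0.96). A high r did not always go with a large difference. Sprtn gave 0.03, 0.10, 0.06 and, for the shRNAs, 0.46, and in siRNA comparison 3 Tc2n gave -0.09 and Dmbt1 -0.18. Without the 2 arrays farthest from the member's median, r lay between 0.77 (Sprr2g with Duox2) and 0.99 (Gsr with Gpx2).

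Beside the 4 genes, 89 others on 6 lists of the same pathways were measured. With limma 0 of these 89 passed in the siRNA arm. In that fit 5 of the 89, or 5.62%, had an unadjusted p under 0.05, against 237 of all 19938 genes. Of these 5, Cat and Gclm were lower in siYAP/TAZ, and Nfkbiz, Socs1 and Socs3 were higher. Higher in all 4 comparisons were 11 of the 89, or 12.4%, against 6.02% of all genes. Lower in all 4 were 9, or 10.1%, against 8.95%. At least 2-fold in the siRNA means were 3 higher (Slc7a11, Socs1, Socs3), or 3.37%, and 1 lower (Cat), or 1.12%, against 0.637% and 0.426% of all genes.

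Among other oxidase genes the close relatives of Duox2 and Duoxa2 had small differences. Duox1 differed by -0.06 (SE 0.29) between the siYAP/TAZ and siGFP means and by 0.33 in the shRNA comparison, and its factor Duoxa1 by 0.14 (SE 0.30) and 0.07. Nox1, the catalytic subunit of the colonic epithelial oxidase, differed by -0.28 (SE 1.02) and 0.10, its activator Noxa1 by -0.49 and -0.05, and Nox4 by -0.23 and -0.53. Mean log2 levels of several of these genes were low. In siYAP/TAZ and siGFP they were 6.24 and 6.29 for Duox1, 6.09 and 5.95 for Duoxa1, and 5.59 and 5.82 for Nox4. Whether such probe sets detected a transcript was not tested. The log2 differences were also untested against those of the members. Some subunits of the phagocyte oxidase had larger differences. Cybb, its catalytic subunit, gave siRNA differences of 0.42, 1.34 and 0.36 and differed by 2.89 in the shRNA comparison. Ncf4, a cytosolic subunit, gave 0.41, 1.61, 0.26 and 0.96, and Rac2, a GTPase of that complex in blood cells, gave -0.26, 1.81, 0.60 and 0.52. The median of the 13 oxidase genes apart from Duox2 and Duoxa2 was 0.08 in the siRNA arm and 0.23 in the shRNA arm, against -0.02 and -0.02 for all genes.

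The other nitric oxide and arginine genes had smaller mean siRNA differences than Nos2, which was picked for its own. The neuronal synthase Nos1 differed by -0.31 (SE 0.33) in the siRNA means and -0.28 in the shRNA comparison. The endothelial synthase Nos3 differed by -0.55 (SE 0.39) and 0.35. Mean log2 levels in siYAP/TAZ and siGFP were low for both, at 5.30 and 5.62 for Nos1 and 5.81 and 6.35 for Nos3. Arg2, an arginase, which uses the same substrate as NOS2, gave -1.88, -0.68 and 0.11 for the siRNAs and -1.94 for the shRNAs. Arg1 gave 0.78, -0.41, 0.08 and 1.59. Ddah2, which degrades an inhibitor of the synthases, differed by 0.49 and -0.10, the polyamine enzyme Odc1 by 0.34 and -0.88, and Qdpr, which recycles biopterin cofactors, by -0.57 and -0.46. The median of these 14 genes was -0.11 in the siRNA arm and -0.13 in the shRNA arm.

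Of the genes that remove peroxide and superoxide, Gsr was nearest to Gpx2. Its siRNA mean difference was 0.71 (SE 0.54). Cat, catalase, ran the other way, with levels of 9.80 ± 0.42 (SD, n = 3) in siYAP/TAZ and 11.05 ± 0.65 (SD, n = 3) in siGFP. Its log2 difference was -1.25 (SE 0.40; limma adjusted p = 1.00), the siRNA groups did not overlap, and the comparisons gave -1.59, -2.07, -0.07 and, in the shRNA arm, -1.45. Of all genes, 1.6% had every siYAP/TAZ array above the siGFP arrays, and the share with every one below, as for Cat, is not given. Gpx1, the widespread glutathione peroxidase, differed by -0.04 (SE 0.39) and -0.38. Prdx3, a mitochondrial peroxiredoxin, differed by 0.37 and -0.34, and Prdx4 by -0.32 and -0.26. The median of the 18 genes apart from Gpx2 was -0.02 in the siRNA arm and -0.20 in the shRNA arm. NRF2 target genes, 15 in number, had medians of -0.07 and -0.16. Slc7a11, the cystine importer, gave 3.55, -0.16, -0.27 and 1.47, so its siRNA mean of 1.04 came from comparison 1. Gclc, the catalytic subunit of the glutathione-making ligase, differed by 0.60 and 0.07, while its partner Gclm gave -0.59, -1.65, -0.32 and -1.19, and Gstm1, of a family with similar sequences, gave -0.63, -2.89, 0.89 and -2.89.

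Signalling genes upstream of these responses, inhibitors among them, were listed too. The cytokines and receptors had a median of -0.01 over 14 genes in the siRNA arm and 0.03 in the shRNA arm. Il1b gave 1.89, 0.47, -0.35 and 2.82, and Tnfrsf1a, a TNF receptor, gave 1.17, 0.11, 0.22 and 0.96. Il17a differed by -0.27 and 0.28, at low mean log2 levels of 5.89 in siYAP/TAZ and 6.16 in siGFP. Il22ra1, the epithelial receptor subunit for IL-22, differed by -0.26 and -0.13. Microbial sensors and genes of NF-kB, STAT and IRF signalling had a median of 0.23 over 16 genes in the siRNA arm and 0.39 in the shRNA arm. Socs3, a feedback inhibitor of STAT3 signalling, gave 3.07, 1.34, 1.76 and 2.91, and Socs1, which acts on interferon signalling, gave 2.17, 0.32, 1.38 and 0.38. Tlr3 differed by -0.46 and -1.03 and Tlr4 by -0.26 and 0.09.

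**Figure D3:**
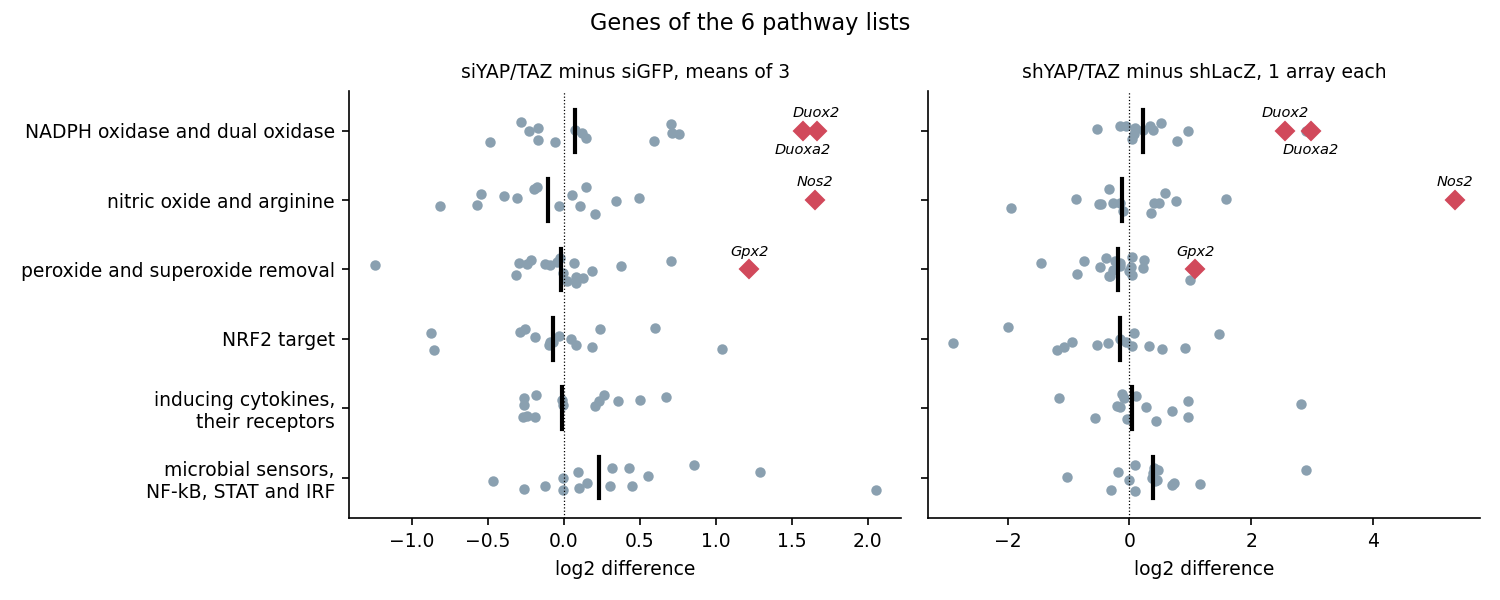
Log2 differences of the genes of 6 pathway lists (grey points, 1 per gene, spread vertically at random; black line, median without the 4 genes), with Nos2, Duox2, Duoxa2 and Gpx2 as red diamonds. Left, siYAP/TAZ minus siGFP means (n = 3 each); right, shYAP/TAZ minus shLacZ (1 array each). The medians lie between -0.11 and 0.23 on the left and between -0.20 and 0.39 on the right.

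Markers of other cells moved with some of these values. In bulk RNA, fewer cells of a type and less RNA per cell cannot be told apart. The 10 neutrophil markers had a mean log2 level of 7.06 in siYAP/TAZ 1, 5.32 in both siYAP/TAZ 2 and 3 and 5.22 to 5.46 in the siGFP arrays, and of 6.24 in shYAP/TAZ, against 5.36 in shLacZ. Their summed intensity ranged from 459 to 1858 in siYAP/TAZ and from 430 to 536 in siGFP, and was 961 in shYAP/TAZ and 473 in shLacZ. The 10 markers did not act alike in the 2 arms. Ly6g had 738 in siYAP/TAZ 1 and 19.3 to 25.1 on the other 7 arrays, shYAP/TAZ among them. In the shRNA comparison Retnlg differed by 2.57, S100a9 by 2.26, Cxcr2 by 2.22 and S100a8 by 1.05, Mpo by -0.22, and the other 5 by -0.08 to 0.48. The 2 arrays with the highest neutrophil means, siYAP/TAZ 1 and shYAP/TAZ, were also the 2 with the highest levels of Nos2 and of Gpx2. The siGFP 1 array, with the lowest neutrophil mean, 5.22, had the third highest level of Nos2 and of Gpx2 and the second highest level of Duox2 and of Duoxa2. The 12 macrophage and monocyte markers, a cell type that can express Nos2, had siRNA medians of -0.04, -0.01 and -0.20 and an shRNA median of 0.54, where Adgre1 gave 1.43, Csf1r 1.49 and Itgam 1.96. Their summed intensity was 1418 to 2461 in siYAP/TAZ, 1887 to 2883 in siGFP, 2884 in shYAP/TAZ and 2226 in shLacZ. Lyz2, the brightest of the 12 on every array, made up much of this sum. Its log2 level was 10.98 in siGFP 2, which had the highest siGFP sum, and 10.66 in shYAP/TAZ. Lyz2 and Lyz1, a gene of the crypt list, were both highest in siGFP 2 and lowest in siYAP/TAZ 3. Lyz1 stood at 12.56 and 10.47 on those arrays, and Lyz2 at 9.04 in siYAP/TAZ 3. What crypt cells contribute to this sum was not tested. The mean log2 level of the 12 markers was 6.58 in siGFP 2 and 7.07 in shYAP/TAZ. The part of neutrophils and macrophages in the members' levels was not tested.

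B cell markers, 6 measured, gave siRNA medians of 0.06, 3.71 and 1.64 and an shRNA median of -1.16, so they ran against the members in the shRNA arm. T cell markers gave -0.17, 0.08, 0.58 and 0.03, and colonic markers 0.15, 0.33, 0.12 and 0.20. The 8 crypt markers gave -0.53, -1.86, -0.27 and -0.39, with 0 called by limma. Lgr5, Olfm4, Lyz1 and Defa24 were lower in all 4 comparisons, while Top2a was higher in 3 of 4 and Mki67 in 2 of 4, and Ascl2 and Smoc2 were higher in siRNA comparison 3. Enterocyte markers, 8 in number, had mean levels of 11.1, 11.8 and 12.6 in siYAP/TAZ 1 to 3, against 10.98, 12.6 and 12.5 in siGFP 1 to 3, and of 11.7 in shYAP/TAZ, against 12.4 in shLacZ. By median difference the enterocyte markers ran against the members each time, with -0.51, -0.43, -0.13 and, for the shRNAs, -0.19. By mean level they did so only for siYAP/TAZ 2 and shYAP/TAZ, while siYAP/TAZ 1 and 3 lay slightly above their controls. Fabp1, with the widest range of the 8, gave 4.96, -2.54, 1.50 and -0.11, and had an intensity of 39.7 in siGFP 1. Alpi, Apoa1, Fabp2 and Sis were lower in all 4 comparisons, while Apoa4 was higher in 3 of 4. The 4 arrays with the lowest enterocyte mean were the 4 with the highest level of each of the 4 genes. Those arrays were siGFP 1, siYAP/TAZ 1, shYAP/TAZ and siYAP/TAZ 2. Summed enterocyte intensity ranged from 25101 to 52800 in siYAP/TAZ and from 30694 to 55233 in siGFP, and was 40407 in shYAP/TAZ and 46809 in shLacZ. What the enterocyte level contributes to the members' differences was not tested.

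**Figure D4:**
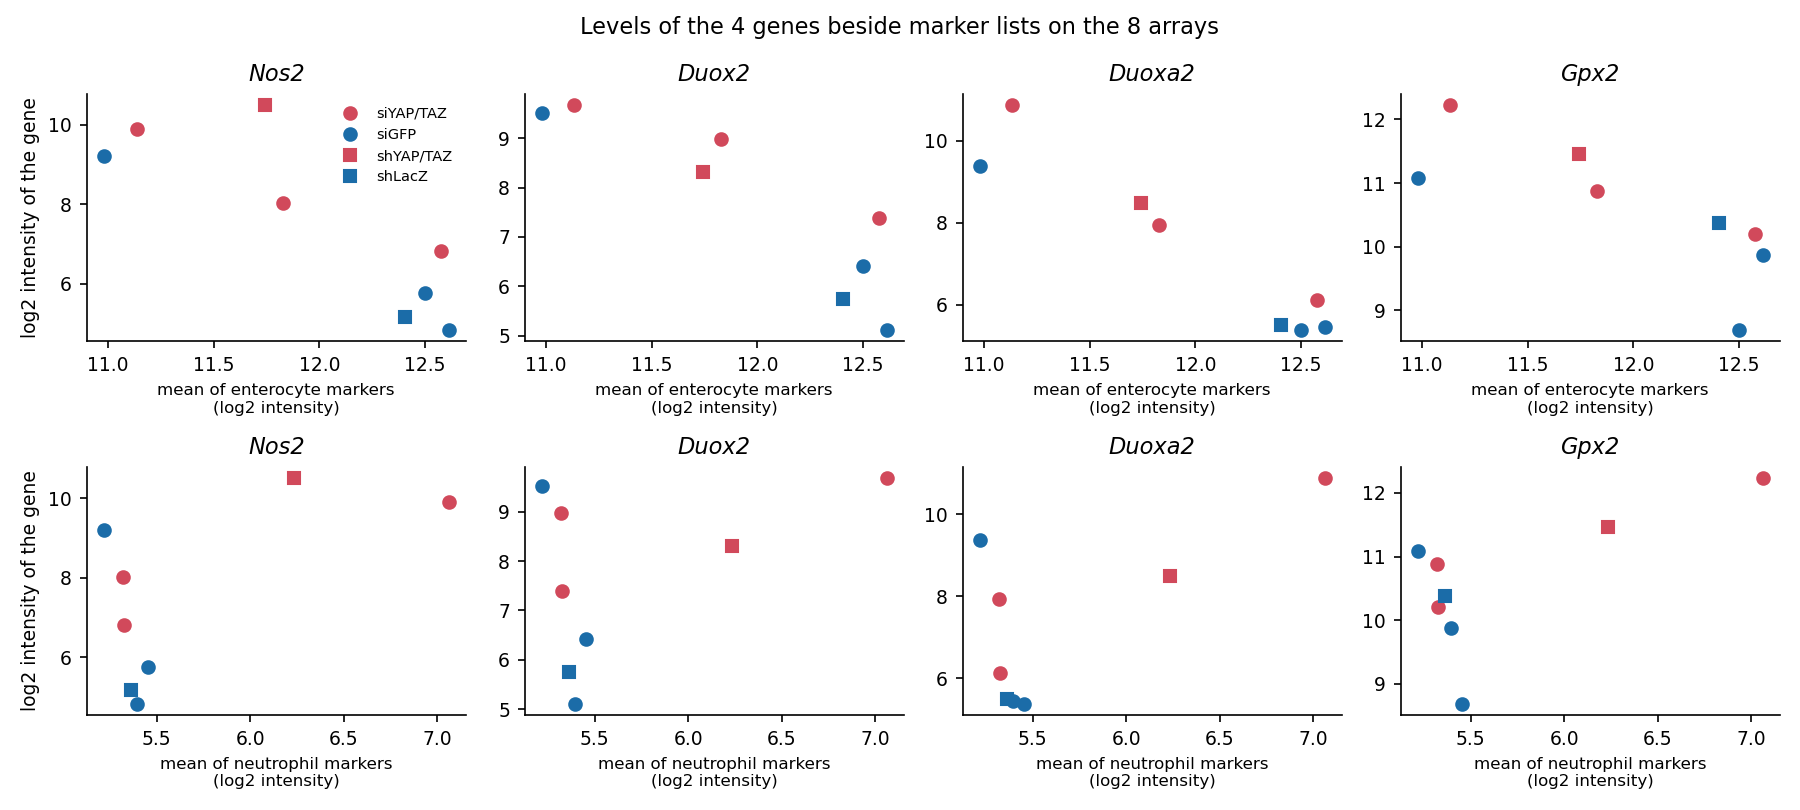
Log2 intensity of the 4 genes (vertical axes) against the mean log2 intensity of 8 enterocyte markers (top row) and 10 neutrophil markers (bottom row) on the 8 arrays; circles are the siRNA arm, squares the shRNA arm, red knockdown-labelled and blue control arrays. The 4 arrays on the left of each top panel, siGFP 1 among them, hold the 4 highest levels, while in the bottom panels siYAP/TAZ 1 at 7.06 and shYAP/TAZ at 6.24 stand to the right of the other arrays.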

How the data were processed

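Each of 8 Affymetrix arrays measured 1 sample. Per the labels' protocols, total RNA was labelled with a whole-transcript (WT) Terminal Labeling and Hybridization Kit. The values deposited by the authors are intensity values on a linear scale for 28853 probe sets; the sources used here do not state how they were background-corrected, summarised or scaled.

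The intensities were put on the log2 scale and quantile normalized over the 8 arrays with limma 3.58.1 in R 4.3.3, since array medians lay 0.32 apart. Of the probe sets, 21789 named 1 gene, 1621 named several and were not used, and 5443 had no listed gene. Symbols were updated by Entrez identifier through the RefSeq table of GRCm38.p6. A gene with several probe sets took the one with the highest mean, and no dim gene was left out. Arrays labelled siYAP/TAZ were compared with siGFP arrays with limma (lmFit, eBayes, Benjamini-Hochberg over all genes, threshold 0.05). The fit was checked on simulated data with known changes and 1 common SD for every gene. That check does not show what changes the fit could find on these arrays, where the spread differs from gene to gene. With 1 array on each side, the shRNA comparison was not tested. Probe set intensities carry no depth, so the number of arrays limits the precision, and p-values measure the spread between samples that the labels do not tie to separate mice.

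The members and all lists were chosen with earlier results of these data known. Named genes are the 4 members, fixed relatives, the 2 highest and 2 lowest of each pathway list, the 5 genes most like each member, and Yap1 and Wwtr1. Single genes of the marker lists were named after their values were seen.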

Additional observations from a re-analysis of the deposited data

How the results depend on the processing

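Centring arrays on the 75th percentile, using no normalization, or taking 15 from every intensity before log2, an alternative chosen after seeing the data, left all 16 member differences above 0. The siRNA mean differences then lay between 1.61 and 2.08 for Nos2, 1.65 and 1.97 for Duox2, 1.56 and 1.85 for Duoxa2 and 1.22 and 1.28 for Gpx2. Without both arrays numbered 1, also chosen after seeing the data, they were 2.13, 2.42, 1.61 and 1.26. Leaving out 1 array at a time gave 0.77 to 2.96 for Nos2, 0.71 to 2.91 for Duox2, 0.29 to 2.89 for Duoxa2 and 0.62 to 1.82 for Gpx2. Every member has 1 probe set, so a mean over probe sets could not be tried. limma called 0 genes higher and 0 lower in the siRNA arm with the arrays as above, with a trended robust prior and without the dimmest 33% of genes. Leaving out 1 array at a time gave 0 to 11 higher and 0 to 2 lower, with 11 and 2 without siYAP/TAZ 1. With the replicate number as a replicate block it called 1 gene, B3gnt7, higher; it was named after its values were seen. Deviations of same-numbered arrays from their group means correlated at 0.75, -0.13 and 0.57, which does not settle whether the numbers pair the samples. The main fit left the number out, while the siRNA comparisons follow the control that the labels assign to each array. Of the 89 pathway genes, 0 were called under any of these settings that were run on them.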
